A study of Mus musculus with 12 samples.

Results

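The genes examined here mark the walls of brain blood vessels: Cldn5, Flt1, Pecam1, Cdh5 and Tek for endothelial cells, and Pdgfrb, Rgs5, Acta2 and Vtn for mural cells, the pericytes and smooth muscle cells that wrap them. They were taken by symbol from the 1 deposited table, where all 9 were found among 21937 genes. The samples were light membrane fractions enriched for myelin, the sheath that oligodendrocytes wind around axons, prepared from whole brains of male WT mice of the inbred strain c57Bl6/N. There were 12 samples of total RNA: 3 at postnatal day 18 (P18), 3 at postnatal day 75 (P75), 3 at 6 months and 3 at 24 months. All ages shared the sex, strain, genotype and fraction, and no agent was named. The labels do not say whether the 3 samples of an age came from separate or pooled animals, and a p-value here covers only the scatter among samples, which may be technical.

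Endothelial cells of the brain seal the vessel with tight junctions and form the blood-brain barrier. Signals between endothelium and mural cells keep the wall stable: vascular endothelial growth factors act on Flt1 and its sister receptor Kdr, angiopoietins act on Tek, and platelet-derived growth factors from the endothelium act on Pdgfrb of pericytes. The vessel wall is not part of the myelin sheath.

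In short, transcripts of the vessel genes were far outnumbered by those of myelin genes in this fraction. The comparisons in which the vessel genes changed differed from gene to gene. The mural genes Pdgfrb and Vtn rose at P75 against P18. Flt1, Pecam1 and Vtn rose at 6 months against P75. Rgs5 fell at P75 against P18 and at 24 months against 6 months. Cldn5, Cdh5, Tek and Acta2 passed in none of the 4 comparisons between ages (limma).

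The deposited values, called normalised counts below, are gene read counts after the authors' scaling by size factors. The samples held 20299052 to 27214385 reads recovered from these values and 16949 to 17261 detected genes. All 9 genes had reads in every sample, with the fewest for Acta2 in P18 replicate 1 (19 reads) and the most for Vtn in 6 months replicate 1 (1294 reads). Summed over the 9 genes, the level in reads per 1000000 recovered reads (RPM) was 33.99 to 40.9 in P18 samples, 54.7 to 55.9 in P75 samples, 76.0 to 85.8 in 6-month samples and 60.8 to 81.9 in 24-month samples. A list of 8 oligodendrocyte and myelin genes took 110115 to 230886 RPM at P18 and 57041 to 98361 RPM at the other ages, so myelin transcripts far outnumbered those of vessels. In bulk RNA, fewer cells of a type and less RNA per cell cannot be told apart.

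The 3 windows printed here lie just before the annotated starts of 3 genes that changed between ages, Flt1 for the endothelium and Vtn and Rgs5 for the mural cells. RefSeq's table for build GRCm38.p6 held 6 of the 9 genes. Pecam1, Cdh5 and Pdgfrb had no entry. Each window runs 5′ to 3′ on the gene's own strand and ends at the base before its outermost annotated start. Capitals mark AGGAAG, which holds the core letters of ETS factors, a family prominent in endothelium, and TATAAA, the letters of the TATA box, on either strand.
Flt1 (chr5:147726012-147726261, minus strand): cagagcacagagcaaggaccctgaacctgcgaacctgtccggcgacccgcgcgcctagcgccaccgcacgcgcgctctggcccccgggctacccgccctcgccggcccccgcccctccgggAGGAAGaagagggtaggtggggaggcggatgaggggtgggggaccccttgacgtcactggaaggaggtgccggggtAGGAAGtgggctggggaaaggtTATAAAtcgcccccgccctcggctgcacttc
Vtn (chr11:78498870-78499090, plus strand): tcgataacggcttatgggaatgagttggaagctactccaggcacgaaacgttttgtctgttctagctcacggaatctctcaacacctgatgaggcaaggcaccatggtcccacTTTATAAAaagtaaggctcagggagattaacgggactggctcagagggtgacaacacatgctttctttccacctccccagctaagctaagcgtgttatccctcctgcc
Rgs5 (chr1:169655251-169655500, plus strand): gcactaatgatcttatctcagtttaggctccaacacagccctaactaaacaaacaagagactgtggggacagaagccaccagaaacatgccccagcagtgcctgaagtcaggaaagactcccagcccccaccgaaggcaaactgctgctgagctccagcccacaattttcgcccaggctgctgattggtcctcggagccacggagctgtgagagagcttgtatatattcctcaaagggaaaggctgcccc
The Flt1 window held AGGAAG at 124 and 48 bases before the start and TATAAA at 26 bases before it. The Vtn window held no AGGAAG, and TATAAA was read there on both strands at 103 and 101 bases before its end, in sites that overlap. The Rgs5 window held neither. Of 32851 RefSeq windows of 250 bases, 29.5% held AGGAAG and 12.4% held TATAAA, so both were common. A match of letters describes the window and shows no binding.

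Levels can be compared between genes only per length. The normalised count per kilobase of annotated exon was averaged over the 12 samples, with exon lengths from GENCODE M21, whose build GRCm38 is not the build mm9 of the table. Vtn stood highest at 364 per kilobase, followed by Cldn5 at 108, Pdgfrb at 39.4, Acta2 at 30.6, Cdh5 at 13.99, Rgs5 at 12.1, Tek at 8.55, Pecam1 at 7.95 and Flt1 at 3.01. The age means per kilobase of Vtn (163 to 516) lay above those of Cldn5 (94.0 to 132), and those of Flt1 (1.94 to 4.41) lay below those of Pecam1 (6.51 to 10.5). Pdgfrb (24.7 to 45.5) and Acta2 (21.6 to 38.6) overlapped, as did Cdh5 (10.1 to 16.6) and Rgs5 (7.78 to 16.7), and Tek (7.11 to 9.14) and Pecam1. Within the mural genes, Vtn alone made up most of the summed count, so that sum mostly follows Vtn.

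The endothelial genes include 2 receptors, and Flt1 is the one that passed between ages. Flt1 encodes a receptor that binds vascular endothelial growth factor tightly and, in its soluble form, withholds it from Kdr. Flt1 had normalised counts of 27.3, 22.6 and 35.2 at P18, 26.1, 19.5 and 33.2 at P75, 67.4, 69.2 and 41.8 at 6 months, and 42.6, 53.0 and 49.99 at 24 months. Every 6-month and 24-month sample lay above every P75 sample, and the third 6-month sample lay well below the other two of its age. Flt1 averaged 59.5 ± 15.3 at 6 months and 26.2 ± 6.85 at P75 (SD, n = 3 each), a log2 fold change of 1.15 ± 0.25 (SE; limma, adjusted p = 0.00108). At 24 months it averaged 48.5 ± 5.34 (SD, n = 3), which was higher than at P75 by 0.89 ± 0.25 (log2, SE; limma, adjusted p = 0.00814). The difference of -0.26 ± 0.25 between 24 months and 6 months did not pass (limma, adjusted p = 0.490).

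Tek encodes TIE2, the angiopoietin receptor. The normalised counts of Tek were 49.9, 33.9 and 42.2 at P18, 38.1, 46.4 and 43.1 at P75, 46.3, 47.9 and 35.03 at 6 months, and 30.7, 34.6 and 35.2 at 24 months. The 24-month samples all lay below the P75 samples, but the difference of -0.33 ± 0.20 on the log2 scale did not pass (SE; limma, adjusted p = 0.183). Over all ages Tek did not pass either (limma F test, adjusted p = 0.315).

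Of the 3 junction and adhesion genes of the endothelium, 1 passed between 2 ages. Pecam1, an adhesion molecule at the contacts between endothelial cells, had normalised counts of 36.8, 46.3 and 39.2 at P18, 41.1, 40.8 and 39.8 at P75, 62.6, 63.0 and 70.1 at 6 months, and 53.5, 54.1 and 47.2 at 24 months. Its 6-month samples stood above all samples of the other 3 ages. Pecam1 averaged 65.2 ± 4.20 at 6 months and 40.6 ± 0.677 at P75 (SD, n = 3 each), a log2 fold change of 0.67 ± 0.16 (SE; limma, adjusted p = 0.00268). At 24 months its samples lay below those of 6 months and above those of P75, but neither the difference of -0.33 ± 0.16 from 6 months nor that of 0.34 ± 0.16 from P75 passed (log2, SE; limma, adjusted p = 0.161 and 0.103).

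Cldn5, the main claudin of the tight junctions of brain endothelium, had normalised counts of 177, 173 and 209 at P18, 139, 188 and 157 at P75, 120.2, 139 and 141 at 6 months, and 123, 141 and 136 at 24 months. The samples of consecutive ages overlapped each time. The largest of its differences was -0.27 ± 0.14 at 24 months against P75 (log2, SE; limma, adjusted p = 0.117). That of -0.26 ± 0.14 at 6 months against P75 did not pass with all samples (limma, adjusted p = 0.112) and passed without P75 replicate 1 (-0.37; limma, adjusted p = 0.0488). Cldn5 passed the F test over the 4 ages (limma, adjusted p = 0.0105), which does not say between which ages it differed. All samples of 6 and 24 months lay below those of P18.

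Cdh5 encodes VE-cadherin, the cadherin of endothelial adherens junctions. It had normalised counts of 49.9, 35.03 and 42.2 at P18, 47.1, 51.9 and 65.2 at P75, 88.6, 67.5 and 48.7 at 6 months, and 61.4, 64.9 and 83.3 at 24 months. Its 6-month samples spread widely, and consecutive ages overlapped. No comparison between 2 ages passed, with log2 differences of 0.36 ± 0.22 at P75 against P18 and 0.28 ± 0.22 at 6 months against P75 (SE; limma, adjusted p = 0.207 and 0.295). Cdh5 passed the F test over ages (limma, adjusted p = 0.0288), but not without P18 replicate 2 (limma, adjusted p = 0.119) or without 24 months replicate 3 (limma, adjusted p = 0.0612), and not after quantile normalisation (limma, adjusted p = 0.196) or with no filter on low counts (limma, adjusted p = 0.0517).

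**Figure D1:**
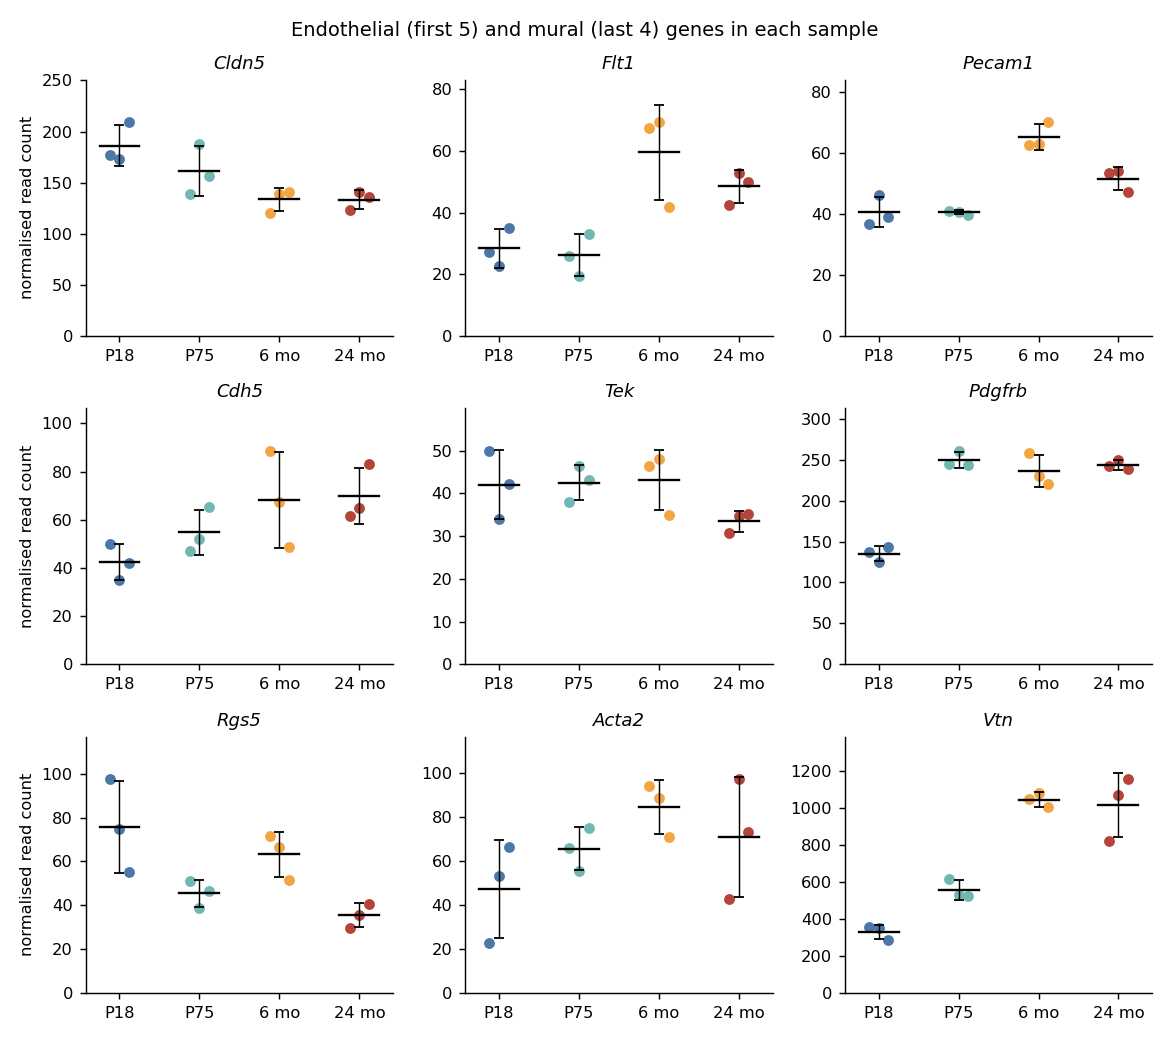
Normalised read count (y axis, from 0) of each of the 9 genes at P18, P75, 6 months (6 mo) and 24 months (24 mo). Points are samples, horizontal lines are means and bars are 1 SD over 3 samples. Flt1 and Pecam1 stand higher at 6 months than at P75, Pdgfrb stands apart only at P18, Vtn climbs until 6 months, and Rgs5 is lower at P75 than at P18 and lower at 24 months than at 6 months.

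Among the mural genes, Pdgfrb, the receptor through which pericytes are recruited and kept, changed once. Pdgfrb had normalised counts of 137, 125 and 144 at P18, 245, 261 and 243 at P75, 258, 229.9 and 219.9 at 6 months, and 243, 249.8 and 238 at 24 months. The P18 samples lay far below all 9 later ones, which overlapped. Pdgfrb averaged 249 ± 9.65 at P75 and 135 ± 9.19 at P18 (SD, n = 3 each), a log2 fold change of 0.88 ± 0.11 (SE; limma, adjusted p = 1.17e-05). The later differences were -0.08 ± 0.11 at 6 months against P75 and 0.05 ± 0.11 at 24 months against 6 months, and neither passed (log2, SE; limma, adjusted p = 0.534 and 0.793).

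Vtn encodes vitronectin, an adhesive glycoprotein that pericytes make in the brain and the liver secretes into plasma. The normalised counts of Vtn were 355, 349 and 289 at P18, 617, 530.3 and 525 at P75, 1051, 1085 and 1007 at 6 months, and 824, 1070.4 and 1157 at 24 months. The ranges of P18, P75 and 6 months were apart, each age higher than the one before, and 24 months overlapped 6 months. Vtn averaged 558 ± 51.8 at P75 and 331 ± 36.5 at P18 (SD, n = 3 each), a log2 fold change of 0.75 ± 0.12 (SE; limma, adjusted p = 0.000142). It averaged 1048 ± 38.9 at 6 months (SD, n = 3), higher than at P75 by 0.91 ± 0.12 (log2, SE; limma, adjusted p = 1.34e-05). At 24 months, with 1017 ± 173 (SD, n = 3), it was still higher than at P75 by 0.86 ± 0.12 (log2, SE; limma, adjusted p = 4.17e-05), and the difference of -0.06 ± 0.12 from 6 months did not pass (limma, adjusted p = 0.782).

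Markers of fibroblasts, which lie around larger vessels and in the meninges and also express Pdgfrb, were mixed at P75 and higher in sum at 6 months. The summed level of 9 fibroblast genes ranged over 81.8 to 116 RPM in P18 samples, 104 to 133 in P75 samples, 187 to 221 in 6-month samples and 187 to 234 in 24-month samples. Of the 9, 5 rose and 2 fell at P75 against P18, and 4 rose and 1 fell at 6 months against P75 (limma). Over all genes tested, 21.7% rose and 18.7% fell in the first of these comparisons, and 27.1% and 25.4% in the second (limma). The sums of P75 and P18 overlapped, and those of 6 months lay above those of P75. Igf2 weighed heavily in these sums, with 1216 of 2346 normalised counts at P18 and 956 of 2663 at P75. Igf2 was also among the 4 that rose at 6 months against P75. Col3a1 and Igf2, a collagen and a growth factor, fell at P75 against P18 by 0.66 and 0.36 on the log2 scale (limma, adjusted p = 0.0259 and 0.0300), and the collagen genes Col1a1 and Col1a2 differed by -0.59 ± 0.25 and -0.09 ± 0.17 and did not pass (log2, SE; limma, adjusted p = 0.0763 and 0.709). Dcn, which encodes the proteoglycan decorin, averaged 618 normalised counts at P75 and 211 at P18, a log2 fold change of 1.56 ± 0.13 (SE; limma, adjusted p = 6.20e-07). Ogn, a proteoglycan of the same class, rose by 1.51 ± 0.17 at P75 against P18 and by 1.25 ± 0.17 at 6 months against P75 (log2, SE; limma, adjusted p = 6.47e-06 and 1.75e-05). Slc6a13, a GABA transporter of meningeal cells, rose by 0.90 ± 0.19 and 1.66 ± 0.19 in the same comparisons (log2, SE; limma, adjusted p = 0.00140 and 3.73e-06). None of the 9 fibroblast genes was at 0 in any sample. The 5 choroid plexus markers also moved with age, with summed levels of 468 to 638 RPM in P18 samples, 1047 to 1294 in P75 samples, 1240.2 to 1436 in 6-month samples and 1831 to 2049 in 24-month samples. The part of fibroblasts and choroid plexus in the rises of Pdgfrb and Vtn was not tested.

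Rgs5 encodes a regulator of G protein signalling that is among the most used markers of pericytes. Its normalised counts were 97.4, 74.6 and 55.2 at P18, 51.1, 38.9 and 46.4 at P75, 71.5, 66.6 and 51.6 at 6 months, and 29.7, 35.7 and 40.7 at 24 months. The levels ran high, low, high and low over the 4 ages, and the ranges of consecutive ages were apart each time, with the nearest samples of P75 and 6 months at 51.1 and 51.6. Rgs5 averaged 45.5 ± 6.14 at P75 and 75.8 ± 21.1 at P18 (SD, n = 3 each), a log2 fold change of -0.69 ± 0.22 (SE; limma, adjusted p = 0.0174). It averaged 35.4 ± 5.51 at 24 months and 63.2 ± 10.4 at 6 months (SD, n = 3 each), a log2 fold change of -0.82 ± 0.22 (SE; limma, adjusted p = 0.0170). The difference of 0.46 ± 0.22 at 6 months against P75 did not pass (log2, SE; limma, adjusted p = 0.0847).

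Both falls of Rgs5 kept their direction when any 1 sample was left out, but their calls did not always hold. The call at P75 against P18 was lost without P18 replicate 1 (log2 fold change -0.50; limma, adjusted p = 0.1001) and without P75 replicate 2 (-0.59; limma, adjusted p = 0.0723). That at 24 months against 6 months was lost without 6 months replicate 1 (-0.72; limma, adjusted p = 0.0788), 6 months replicate 2 (-0.77; limma, adjusted p = 0.0623), 24 months replicate 1 (-0.70; limma, adjusted p = 0.0706) or 24 months replicate 2 (-0.83; limma, adjusted p = 0.0522).

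Acta2 encodes the actin of vascular smooth muscle, a member of a family of near-identical actin genes, and how reads shared within the family were counted was not measured here. Its normalised counts were 22.6, 53.1 and 66.3 at P18, 66.1, 55.6 and 75.2 at P75, 94.2, 88.8 and 71.0 at 6 months, and 42.6, 97.3 and 73.1 at 24 months. All consecutive ages overlapped, and the spread within P18 and within 24 months was wide. Acta2 averaged 65.6 ± 9.78 at P75 and 47.3 ± 22.4 at P18 (SD, n = 3 each), and the log2 difference of 0.58 ± 0.33 did not pass (SE; limma, adjusted p = 0.169). Without P18 replicate 3 that difference passed (log2 fold change 0.89; limma, adjusted p = 0.0321). Acta2 did not pass over all ages (limma F test, adjusted p = 0.0813), but did without P18 replicate 3 or 24 months replicate 1 (limma F test, adjusted p = 0.0122 and 0.0309).

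Single samples stood low or high in several genes at once. 24 months replicate 1 had the lowest normalised count of its age in 7 of the 9 genes, all but Pecam1 and Pdgfrb. The share of all genes that were lowest in that sample was not counted. 24 months replicate 1 also had the lowest sums of its age for fibroblast (187 RPM), microglial (538 RPM), astrocyte (4199 RPM), neuronal (7259 RPM) and oligodendrocyte precursor genes (59.6 RPM). In RPM the lists of further endothelial, further mural, junction and ligand genes given below were lowest there too. In normalised counts the further mural and junction sums were instead lowest in 24 months replicate 3 (1755 and 20488). In 24 months replicate 1 the sums of choroid plexus (1985 RPM) and red cell genes (2.03 RPM) were not the lowest, and that of oligodendrocyte and myelin genes (86531 RPM) was the highest. P18 replicate 1 had the lowest Acta2 of all 12 samples and the highest Rgs5.

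The number of the 9 genes that passed in each comparison is read against the share of all genes that passed. All 9 passed the filter on low counts, since each reached 10 in every sample. At P75 against P18, 2 of 9 rose and 1 fell, beside 21.7% of the 14987 genes tested that rose and 18.7% that fell (limma). At 6 months against P75, 3 rose, beside 27.1% that rose and 25.4% that fell over all genes. At 24 months against 6 months, 1 fell, beside 10.8% that rose and 8.34% that fell. At 24 months 2 rose against P75, beside 25% that rose and 20.7% that fell. The F test over ages passed for 7 of the 9, and for 77.4% of all genes tested. The median log2 fold change of the 9 genes was 0.030 at P75 against P18 (all genes 0.017), 0.36 at 6 months against P75 (all genes 0.0029), -0.26 at 24 months against 6 months (all genes 0.030) and 0.045 at 24 months against P75 (all genes -0.0027).

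By cell type, the 5 endothelial genes held 2 of the 3 rises at 6 months against P75 and 1 of the 2 at 24 months against P75. In the other 2 comparisons 0 of the 5 passed with limma, 0 had an unadjusted p under 0.05, and 0 passed with edgeR or DESeq2 on the recovered reads. Of the 4 mural genes, 2 rose and 1 fell at P75 against P18, 1 rose at 6 months against P75, 1 fell at 24 months against 6 months and 1 rose at 24 months against P75. The comparisons share samples of P75 or 6 months and are not independent.

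**Figure D2:**
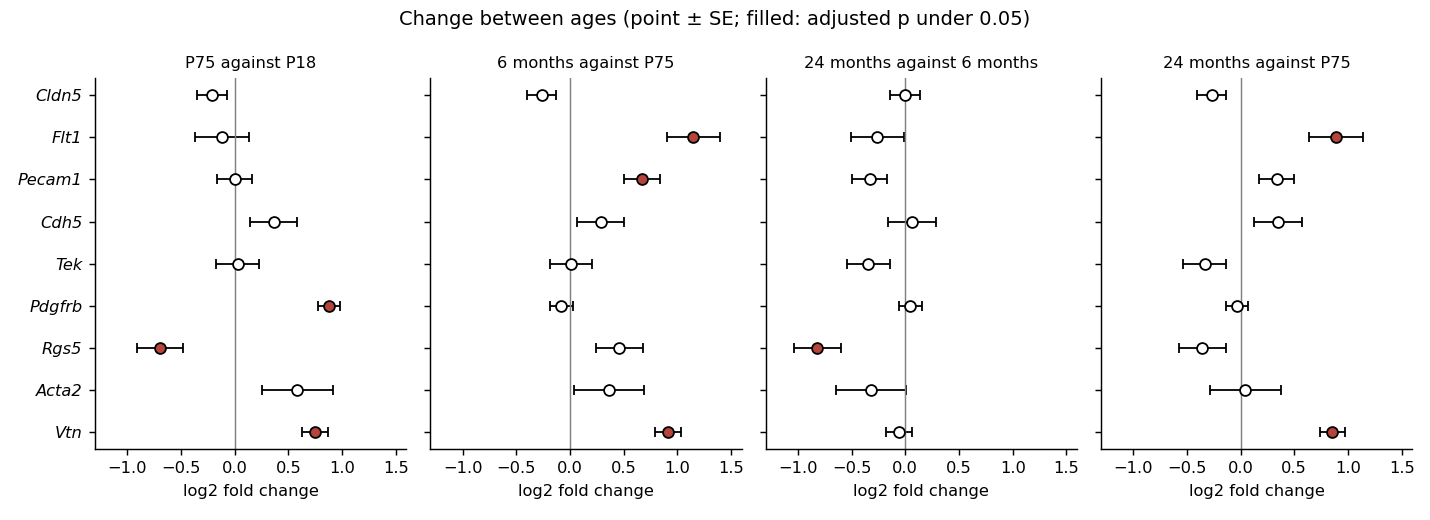
Log2 fold change (x axis) of the 9 genes in the 4 comparisons between ages, with the first age named over the second. Points are limma estimates, bars are 1 SE, and filled points have an adjusted p under 0.05 over all 14987 genes tested. The filled points are Pdgfrb, Vtn and Rgs5 in the first panel, Flt1, Pecam1 and Vtn in the second, Rgs5 in the third, and Flt1 and Vtn in the fourth.

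The wider set of endothelial genes was mixed. Of 24 further endothelial genes, 23 were tested and Erg was too low. At P75 against P18, 6 rose and 1 fell. At 6 months against P75, 5 rose and 6 fell, and the median log2 fold change was -0.22. At 24 months 8 rose against 6 months, with a median of 0.13. In the 24-month samples against P75, 5 rose and 2 fell (limma). Over all genes tested, 21.7% rose and 18.7% fell at P75 against P18, and 27.1% and 25.4% at 6 months against P75. Of all genes at 24 months, 10.8% rose and 8.34% fell against 6 months, and 25% and 20.7% against P75 (limma). The 6 that fell at 6 months against P75, named here after their values were seen, were Sox17 (log2 fold change -1.84 ± 0.32), Robo4 (-1.28 ± 0.30), Foxq1 (-0.80 ± 0.26), Mfsd2a (-0.77 ± 0.14), Slco1a4 (-0.73 ± 0.16) and Sox18 (-0.68 ± 0.24; SE, limma, adjusted p = 0.000157 to 0.0286). Sox17 and Sox18 encode transcription factors of endothelium, Robo4 a guidance receptor of vessels, Mfsd2a a lipid transporter of the blood-brain barrier and Slco1a4 an organic anion transporter there. Mfsd2a averaged 419.7 normalised counts at 6 months and 727 at P75. Sox17 and Robo4 were low at 6 months, with means of 6.26 and 10.55 beside the filter value of 10. Sox17, Robo4 and Mfsd2a rose at 24 months against 6 months, by 1.13, 0.89 and 0.57 (log2, limma, adjusted p = 0.0222, 0.0473 and 0.0103). Slco1a4, Foxq1 and Sox18 did not pass there. Of the 6, only Slco1a4 was called lower at 24 months against P75 (-0.65; limma, adjusted p = 0.00279).

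Kdr, the main signalling receptor for vascular endothelial growth factor and named here after its values were seen, averaged 67.7 normalised counts at 6 months and 29.1 at P75, a log2 fold change of 1.25 ± 0.29 (SE; limma, adjusted p = 0.00182), beside 1.15 ± 0.25 for Flt1. At 24 months against P75 Kdr was higher by 0.94 ± 0.29 (log2, SE; limma, adjusted p = 0.0148), a call lost without P75 replicate 2, P75 replicate 3 or 24 months replicate 2 (limma, adjusted p = 0.0667, 0.0714 and 0.0580). Egfl7, a protein that endothelial cells secrete into their matrix, had 305, 330.2 and 315 normalised counts at 6 months, against 173, 168 and 170.2 at P75, and rose by 0.89 ± 0.11 (log2, SE; limma, adjusted p = 7.72e-06). Itm2a, a membrane protein enriched in brain endothelium, had 547, 430.5 and 512 at 6 months, against 203, 198 and 329 at P75, and rose by 1.06 ± 0.17 (log2, SE; limma, adjusted p = 9.02e-05). Like Flt1, Egfl7 and Itm2a were also higher at 24 months than at P75, by 0.91 ± 0.11 and 1.003 ± 0.17 (log2, SE; limma, adjusted p = 1.13e-05 and 0.000210).

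Vwf, the clotting glycoprotein that endothelial cells store and release, rose at each step. Its normalised counts were 28.5, 30.5 and 40.2 at P18, 43.1, 54.7 and 64.1 at P75, 102, 90.5 and 97.3 at 6 months, and 152, 176 and 127 at 24 months. No 2 consecutive ages overlapped. The rise at 24 months against 6 months was 0.64 ± 0.19 (log2, SE; limma, adjusted p = 0.0265). The call was lost, with the log2 fold change at 0.52 to 0.67, without any 1 of the 3 samples of 6 months or without 24 months replicate 1 or 2 (limma, adjusted p = 0.0539 to 0.123).

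Genes of the tight junction and adherens junction that work with Cldn5 and Cdh5 were counted as a further list. Of 9 junction genes, 3 rose and 2 fell at P75 against P18, 4 rose at 6 months against P75, 2 fell at 24 months against 6 months, and 4 rose and 1 fell at 24 months against P75 (limma). Over all genes tested, 27.1% rose and 25.4% fell at 6 months against P75, and the shares in the other comparisons are given above. Ocln, which encodes occludin, had 169, 142 and 125 normalised counts at 6 months, against 89.2, 64.0 and 102 at P75, and rose by 0.78 ± 0.18 (log2, SE; limma, adjusted p = 0.00157). Jam2, a junctional adhesion molecule, rose by 0.77 ± 0.12 at P75 against P18 and by 0.66 ± 0.12 at 6 months against P75 (log2, SE; limma, adjusted p = 0.000131 and 0.000293). Cgn, which encodes cingulin, the cytoplasmic plaque protein of tight junctions, averaged 74.3 at P75 and 42.8 at P18 and rose by 0.78 ± 0.15 (log2, SE; limma, adjusted p = 0.000783). These genes are also used by other epithelial or glial cells, and the summed level of choroid plexus markers given above moved with age, whose part here was not tested.

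Among the 7 ligands of Flt1, Tek and Pdgfrb, 1 rose at P75 against P18, 2 rose and 2 fell at 6 months against P75, and 4 rose and 1 fell at 24 months against P75 (limma). Of all genes tested, 27.1% rose and 25.4% fell at 6 months against P75, and 25% and 20.7% at 24 months against P75 (limma). At 24 months 0 of the 7 passed against 6 months with limma, edgeR or DESeq2, and 1 had an unadjusted p under 0.05. The 2 that fell at 6 months against P75, named here after their values were seen, were the Flt1 ligands Vegfb and Pgf. They differed by -0.37 ± 0.12 and -0.60 ± 0.20 (log2, SE, limma, adjusted p = 0.0171 and 0.0178). Vegfa, a further Flt1 ligand, differed by 0.25 ± 0.13 there and did not pass (log2, SE, limma, adjusted p = 0.101). Pgf and Vegfa differed by -0.60 and 0.35 at 24 months against P75 (log2, limma, adjusted p = 0.0215 and 0.0333). Pdgfd, a ligand of Pdgfrb, had 84.5, 69.2 and 61.3 normalised counts at 6 months, against 17.0, 12.98 and 27.6 at P75, and rose by 1.90 ± 0.27 (log2, SE; limma, adjusted p = 2.44e-05), while the change of Pdgfrb in that comparison was -0.08 ± 0.11 and did not pass. Angpt2, the angiopoietin that can block Tek, had 56.1, 42.6 and 38.9 at 6 months, against 17.0, 20.4 and 30.95 at P75, and rose by 1.003 ± 0.23 (log2, SE; limma, adjusted p = 0.00196). Angpt1, the angiopoietin that activates Tek, averaged 288 at 24 months and 218 at P75 and rose by 0.41 ± 0.14 (log2, SE; limma, adjusted p = 0.0296), a call lost in 5 of its alternatives with adjusted p up to 0.109 (limma).

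Among the 19 further mural genes, rises and falls were mixed. At P75 against P18, 2 rose and 1 fell, and at 6 months against P75, 3 rose and 3 fell. The 24-month samples had 2 higher against 6 months, and 2 higher and 3 lower against P75 (limma). All genes tested were mixed too, with 27.1% that rose and 25.4% that fell at 6 months against P75 (limma). The shares in the other comparisons are given above. Anpep, an aminopeptidase on the pericyte surface, had 64.2, 63.9 and 57.4 normalised counts at 6 months, against 29.1, 33.4 and 19.9 at P75, and rose by 1.17 ± 0.26 (log2, SE; limma, adjusted p = 0.00130). Art3, of the ADP-ribosyltransferase family, had 85.2, 97.4 and 133 at P75, against 29.7, 30.5 and 49.2 at P18, and rose by 1.51 ± 0.22 (log2, SE; limma, adjusted p = 5.46e-05). Myl9, the regulatory myosin light chain of smooth muscle, had 121, 118 and 119.7 at 6 months, against 190.4, 203 and 198 at P75, and fell by 0.72 on the log2 scale, with an SE of 0.12 (limma, adjusted p = 0.000112). Art3 rose again at 24 months against 6 months by 0.87 ± 0.22 (log2, SE; limma, adjusted p = 0.0125), a call lost without 6 months replicate 3 or 24 months replicate 2 (limma, adjusted p = 0.0501 and 0.0555).

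**Figure D3:**
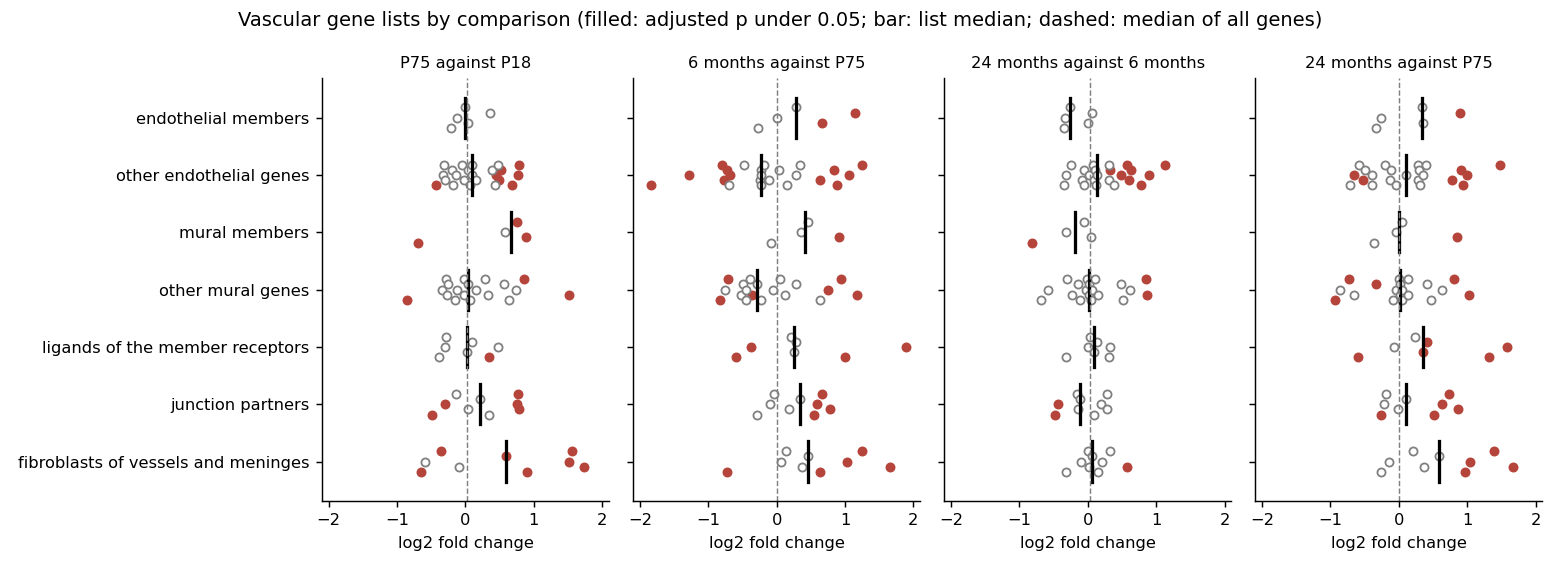
Log2 fold change (x axis) of each tested gene of 7 vascular lists in the 4 comparisons, with the first age named over the second. Each point is a gene, filled where its adjusted p is under 0.05 (limma), black bars are list medians and dashed lines the median of all genes tested. Filled points to the right occur in all 4 panels for the further endothelial, further mural and fibroblast lists, and each of the 3 also has filled points to the left.

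Summed levels were taken for each list. The 4 mural genes summed to 24.0 ± 1.40 RPM in P18 samples, 40.8 ± 1.96 in P75 samples, 63.2 ± 4.15 in 6-month samples and 58.8 ± 9.81 in 24-month samples (SD, n = 3 each). The 5 endothelial genes summed to 13.9 ± 2.37, 14.5 ± 1.45, 16.3 ± 1.32 and 14.5 ± 1.27 at the same ages, and these overlapped at all ages. Cldn5 made up much of that sum, with 186 of 339.8 normalised counts at P18 and 134 of 369.6 at 6 months, a pair of ages that was not tested. At 6 months against P75 the difference of Cldn5 was -0.26 ± 0.14 and did not pass (log2, SE, limma, adjusted p = 0.112), while Flt1 and Pecam1 rose. The 24 further endothelial genes summed to 179 ± 26.5, 231 ± 30.3, 234 ± 14.4 and 270.1 ± 17.4. A few genes weighed heavily in that sum. Slc2a1 averaged 1049 of 4371 normalised counts at P18 and 1588 of 6287 at 24 months. Cd34 averaged 390 and 900 at these ages, Slco1c1 441 and 777, and Mfsd2a 829 and 630. The 19 further mural genes lay between 72.02 and 84.5 RPM in all 12 samples. The 7 red cell genes summed to 14.9 to 22.1 RPM at P18 and 1.59 to 2.68 RPM at the other ages, while the 4 globin genes among them (Hbb-b1, Hbb-b2, Hba-a1, Hba-a2) had 0 in every sample. Microglial markers summed to 220.3 to 241 RPM in P18 samples, 324 to 364 in P75 samples, 397 to 470.1 in 6-month samples and 538 to 685 in 24-month samples.

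**Figure D4:**
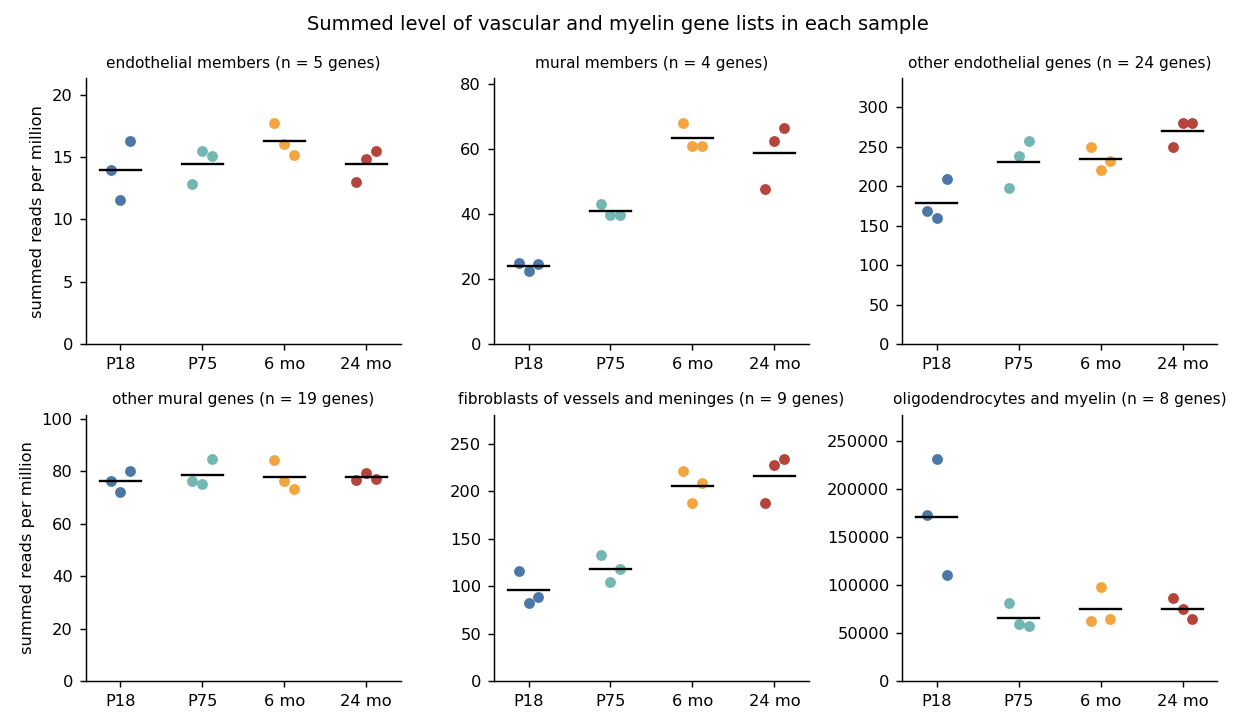
Summed level in RPM (y axis, from 0) of 6 gene lists in each sample at P18, P75, 6 months (6 mo) and 24 months (24 mo). Points are samples and lines are means of 3. The mural sum climbs until 6 months, the endothelial sum and that of the further mural genes overlap at all ages, the fibroblast sum is higher at 6 and 24 months, and the myelin sum is highest at P18.

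The course of each group was also compared with that of single genes outside it, by Pearson's r over the 12 samples with the mean of the standardised log2 values of the group, among 11602 genes. The samples share 4 ages and their depths, so r describes likeness only. For the endothelial mean the nearest included Pik3c3 (r = 0.92), Wdr36 (0.89), Sugp2 (0.89) and Snw1 (0.87). The endothelial genes themselves had r of 0.79 for Flt1, 0.71 for Cdh5, 0.54 for Tek, 0.52 for Pecam1 and -0.30 for Cldn5 with the mean that holds them. For the mural mean the nearest were Kcna6 (0.96), Akap11 (0.95), Igfbp5 (0.95), Tanc1 (0.94) and Pde5a (0.94). The mural genes had r of 0.86 for Vtn, 0.81 for Acta2, 0.75 for Pdgfrb and -0.14 for Rgs5. Cldn5 and Rgs5 thus had the lowest r in their groups, and that of Rgs5 was close to 0.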

How the data were processed

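Signal values in the deposited table are gene read counts that were scaled by the authors with size factors. The submitters' processing notes name TopHat, HTSeq, DESeq and build mm9, without versions. Extraction, library construction, strand setting and batches are not given in the sources used here. In each of 12 columns 100% of values were whole multiples of 1 step (tolerance 0.0061), which gave the whole reads, 20299052 to 27214385 per sample; 3 of the steps lay within 1% of 1. Counting error alone does not cover the spread between samples. Genes that reached 10 in at least 3 samples (14987) were tested on log2(value + 1), a scale that understates changes of low genes, in limma 3.58.1 (R 4.3.3), using a mean-variance trend, over all 12 samples in 4 ages. Consecutive ages, 24 months against P75 and an F test over ages were two-sided, with Benjamini-Hochberg adjustment over all genes and a threshold of 0.05. On the recovered reads edgeR 4.0.16 called 11670 genes at any age. DESeq2 1.42.0, other pseudocounts, filters and scalings, a replicate block and leaving out each sample were alternatives. The fit was tested on simulated data. The 9 genes and the gene lists were chosen with earlier results of these data known. Of each further vascular list the 3 genes with the lowest F test p are named; likeness was ranked among genes with a mean of at least 50, the nearest 5 being named, except 1 that is not reported here. No replicate pair agreed within sampling noise.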

Additional observations from a re-analysis of the deposited data

How the results depend on the processing

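Of 36 member changes (9 genes in 4 comparisons), 28 kept their side of the threshold under every one of 22 alternatives, except that Tek could not be tested under the stricter filter, a minimum of 50. Of the 9 called changes, 7 kept call and direction throughout; the exceptions were the 2 falls of Rgs5, given above, which kept their direction. No called change reversed, while some that did not pass changed sign, such as Acta2 at 24 months against P75 (-0.22 to 0.37). At 24 months against 6 months, leaving out single samples gave 1244 to 3963 genes called (2876 with all samples) and 0 to 1 of the 9 genes (1 with all). Quantile normalisation called 5 of the 9 at 24 months against P75, against 2 otherwise, adding Cldn5 (-0.39), Tek (-0.53) and Rgs5 (-0.56; limma, adjusted p = 0.0265, 0.0382 and 0.0429). The summed mural level at P75 over P18 was 0.76 (log2) in RPM and 0.64 in size-factor counts. The causes were not tested. The replicate numbers did not pair the samples: 3 of 18 same-numbered pairs had r over 0.1 (range -0.18 to 0.16), and 6 of 12 samples matched best to their own number. With a replicate block 5871, 7656, 2583 and 6661 genes passed in the 4 comparisons and no call of the 9 genes changed. Tek passed the F test over ages after quantile normalisation (limma, adjusted p = 0.0452), and the exceptions of Cdh5 and Acta2 are given above. The SEs of Flt1, Cdh5, Tek, Acta2 and Rgs5 were 0.20 to 0.33 (log2), against 0.11 to 0.16 for the other members.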
